A study of Mus musculus with 5 samples.

Results

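The genes described here encode enzymes of the tricarboxylic acid (TCA) cycle, of its pyruvate dehydrogenase entry and of mitochondrial fatty acid oxidation. They are 38 genes listed by function. The rule that picks them uses no measured value, but the list was chosen with earlier results of these data known. A gene was taken from the probe sets that carry its symbol alone, and where it had several, the brightest of them by its mean over the 5 arrays was used. Of the 38, 36 had such a probe set and 32 passed the filter on low signals, out of 8251 genes with a probe set of their own and 5581 genes past the filter. Hadha and Acsl1 were not analysed here.

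RNA of mouse peritoneal macrophages was measured on 5 Affymetrix MG-U74Av2 arrays, which hold sets of short oligonucleotide probes, and the study asked how a single oral dose of ethanol changes the response to poly IC. Poly IC (polyinosinic polycytidylic acid) is a synthetic double-stranded RNA that imitates a viral infection. The groups were 1 naive array, 2 poly IC arrays and 2 arrays of poly IC plus ethanol, each treated array being a pool of mice. The treated mice were 12-week-old C57Bl/6 x C3H F1 females. Ethanol was given at 6 g/kg. Poly IC was given at 0.1 mg per mouse in the second poly IC pool and in both ethanol pools, while the label of poly IC pool 1 states no dose. The naive label gives no sex, age or pooling, no array of ethanol alone was analysed, and the time from treatment to harvest and the size of the pools are not given in these sources. The single naive array has no replicate, and its spread was taken to equal that of the treated groups.

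As background, pyruvate dehydrogenase turns pyruvate into acetyl-CoA, which the TCA cycle oxidises in the mitochondrial matrix. Long-chain fatty acids reach the matrix as carnitine esters and are shortened there by beta-oxidation, whose acyl-CoA dehydrogenases pass electrons through the electron transfer flavoprotein to the respiratory chain. In macrophages these pathways are known to be remodelled when the cells are activated.

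The genes fell in part with poly IC, and a smaller number were higher when ethanol had been given as well. Of the 32 tested, 14 were lower in poly IC than in naive and 0 were higher (limma, adjusted p under 0.05 over all 5581 genes), against 20.1% of all genes called lower and 11.7% called higher. At an unadjusted p under 0.05, limma counted 18 lower and 0 higher, against 27.1% and 15.2% of all genes. The median difference of the 32 was -0.585 and that of all genes -0.156, both as differences of log2(signal + 250), the scale of every difference given here. Adding 250 makes the differences of dim probe sets smaller than those of the plain log2 signals. All 4 tested carnitine entry genes fell, as did 2 of 4 acyl-CoA dehydrogenases, 2 of 3 pyruvate dehydrogenase genes and 2 of 12 mitochondrial TCA cycle genes, where Dld counts in the last 2 groups. In poly IC plus ethanol against poly IC, 5 genes were higher and 0 lower, against 5.77% and 4.8% of all genes.

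The arrays share a trimmed mean (2501.5 to 2502.0) but differ in their medians, and this touches the counts. Centring each array on its median raises every difference from naive to poly IC by 0.197. The medians of the poly IC arrays lay lower than that of naive by that amount (a centring shift of -0.197). With centred arrays 9 of the 32 genes were lower in poly IC, against 12.9% of all genes, and with quantile normalization 9 were lower, against 17% of all genes. The split of all calls moved from 654 higher and 1121 lower to 843 higher and 721 lower with centred arrays. The 8 genes with lower calls under every alternative that tested them were Pdha1, Idh1, Cpt1a, Slc25a20, Crat, Acadm, Acadl and Acaa2.

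**Figure D1:**
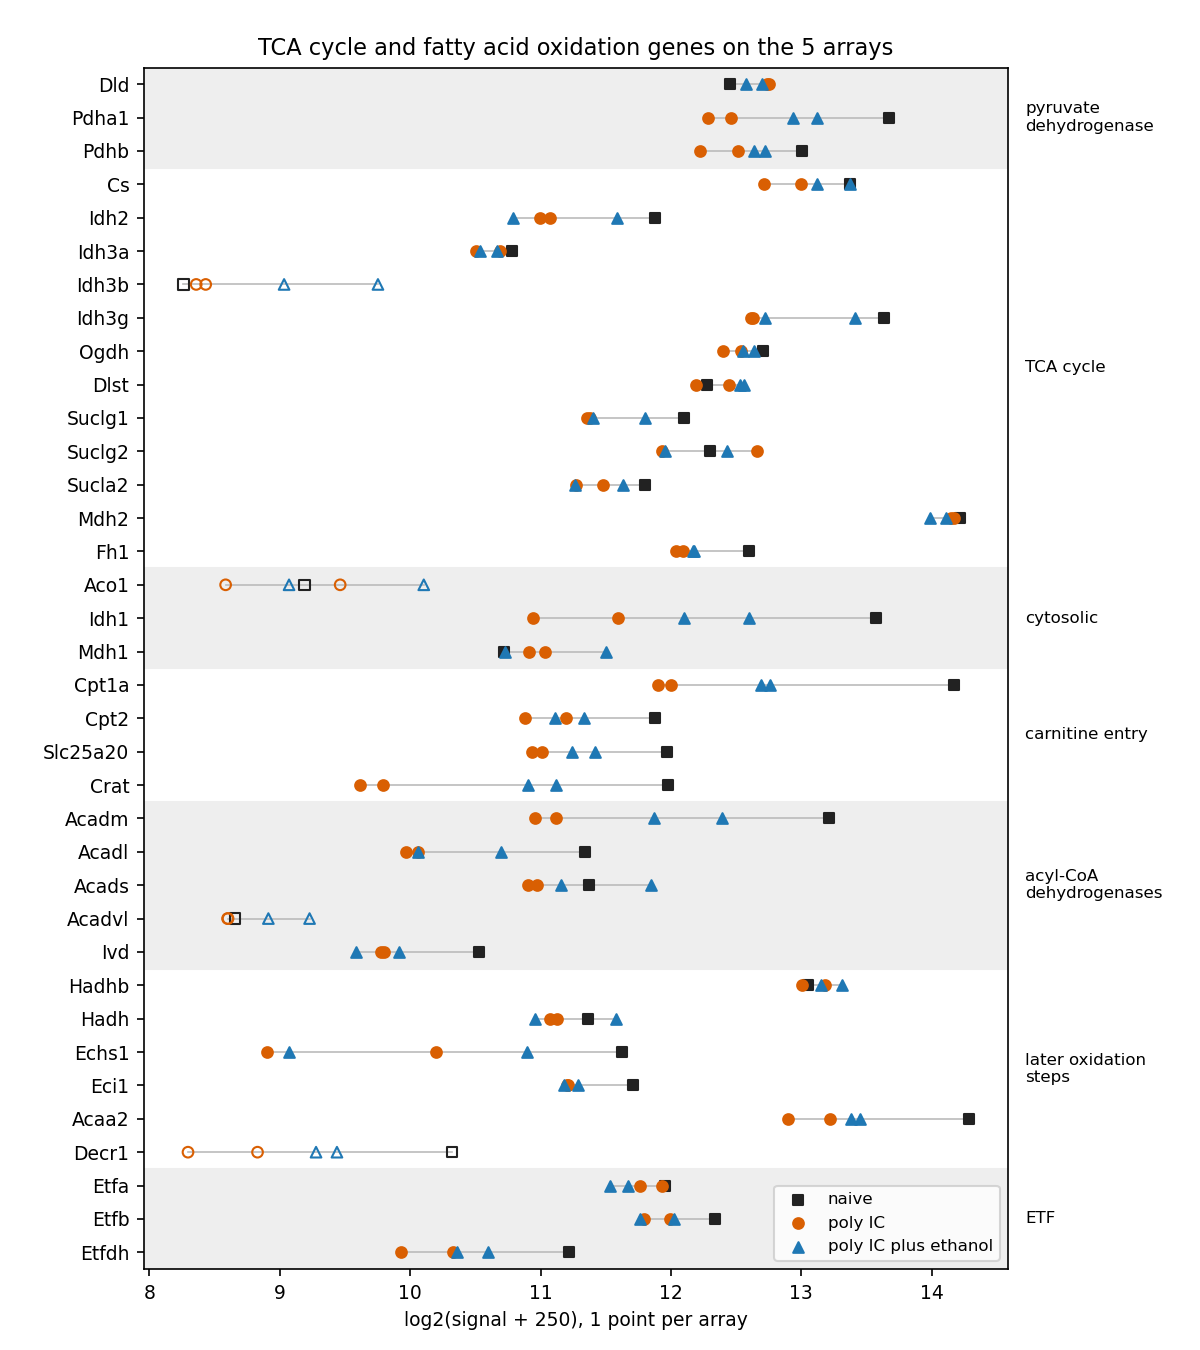
Signal of each gene on each array, as log2(signal + 250), ordered by role; 1 point is 1 array, and open symbols mark the 4 genes below the filter. The naive square lies to the right of both poly IC circles for all 14 genes that fell, and for Cpt1a, Crat, Acadm, Idh1 and Pdha1 both ethanol triangles lie between them.

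Markers of other peritoneal cells moved with the same comparisons. The macrophage list had 13 of 13 genes above the brightest unspiked control probe set on every array, with a summed signal of 375171 in naive, 518902 and 565828 in poly IC, and 452745 and 509201 with ethanol. Of 12 macrophage markers tested, 4 were higher in poly IC (Cd14, Fcgr1, Msr1 and Cybb), 1 was lower and 7 were not called. Over all genes 11.7% were higher and 20.1% lower. Cd14 had 47180 in naive, and 126412 and 147435 in poly IC, while Cd68 had 26681, then 26646 and 27474. The B cell list had a summed signal of 280305 in naive, 104123 and 119147 in poly IC, and 158011 and 161223 with ethanol, with 10 to 13 of 13 genes above the control. Of 11 B cell markers tested, 9 were lower in poly IC than in naive, against 20.1% of all genes. With ethanol 4 of them were higher than with poly IC alone, against 5.77% of all genes. The neutrophil list had a summed signal of 24299 in naive, 104953 and 144520 in poly IC, and 42423 and 48966 with ethanol, with 7 to 13 of 15 genes above the control. Of 13 neutrophil markers tested, 9 were higher and 1 lower in poly IC, against 11.7% and 20.1% of all genes. With ethanol 6 were lower than with poly IC alone, against 4.8% of all genes. Some, such as Mmp8, passed the filter only through their poly IC arrays, so the filter partly set the side of their calls. Mmp8 had 108 in naive, 2704 and 1257 in poly IC, and 114 and 143 with ethanol. The resident peritoneal macrophage list had 8 of 8 genes above the control on every array and a summed signal of 211767 in naive, 219288 and 244169 in poly IC, and 214960 and 237592 with ethanol. Within it Gata6, the transcription factor of resident peritoneal macrophages, had 7218 in naive, 1169 and 1531 in poly IC, and 1851 and 2188 with ethanol, and fell with poly IC (-2.23, SE 0.239, adjusted p = 9.38e-05). Tgfb2 fell as well (-2.10, SE 0.23, limma adjusted p = 0.000108). Thus 2 of the 8 were lower, against 20.1% of all genes, and 5 of the 8 were not called. Selp was the 1 that rose, with 23315 in naive, 63457 and 69204 in poly IC, and 54347 and 45732 with ethanol. The erythroid list had a summed signal of 2569 in naive, 19432 and 35184 in poly IC, and 12945 and 20714 with ethanol, with 3 to 5 of 6 genes above the control. Of 3 erythroid markers tested, 2 were higher in poly IC, against 11.7% of all genes, and Klf1 was not called. The 2 were the globin genes Hba-a1 (4.42, SE 0.385, limma adjusted p = 2.15e-05) and Hbb-b2 (3.10, SE 0.437, adjusted p = 0.000552). Slc4a1, below the filter, went the other way, with 712 in naive, 281 and 171 in poly IC, and 506 and 788 with ethanol. The mast cell list had 22301 in naive, 35903 and 62417 in poly IC, and 28739 and 32040 with ethanol (5 to 7 of 8 genes above the control). Within it Hdc had 2416 in naive, 28453 and 25488 in poly IC, and 12709 and 11266 with ethanol. Of 5 mast cell markers tested, Hdc was the 1 called higher in poly IC, against 11.7% of all genes, and 4 were not called. The T or NK cell list had 29284, then 14920 and 21528, then 23074 and 25550 (6 to 10 of 13 genes), and the dendritic cell list 7826, then 4303 and 5127, then 4879 and 5693 (4 of 5 genes). The part of these shifts in the results on metabolic genes was not tested. In RNA of whole samples, fewer cells of a type and less RNA per cell cannot be told apart.

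The promoters of Pdha1, Idh1, Cpt1a and Acadm are shown because these genes fell with poly IC and were higher with ethanol. Each is the window from 250 bases before to 50 bases after a RefSeq transcription start, on the strand of the gene, from RefSeq on assembly GRCm38.p6. Of the 36 genes, 32 were in the promoter table, among them 12 of the 14 that fell and 4 of the 5 that were higher with ethanol. Crat, Acaa2, Decr1 and Idh3a have no entry there. Idh1 has a pair of listed starts, both shown. Capitals mark the GC box GGGCGG, the core motif of the factor NRF1 (GCGCATGCG) or a box of the letters CCAAT, found on either strand.
Pdha1 promoter (chrX:160138381-160138680, minus strand): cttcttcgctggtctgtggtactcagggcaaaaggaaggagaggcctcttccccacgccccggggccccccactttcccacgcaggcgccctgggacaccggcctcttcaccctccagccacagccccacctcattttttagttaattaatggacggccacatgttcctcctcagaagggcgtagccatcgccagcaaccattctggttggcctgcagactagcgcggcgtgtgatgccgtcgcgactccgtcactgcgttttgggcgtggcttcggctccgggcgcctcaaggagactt
Idh1 promoter, upstream start (chr1:65186430-65186729, minus strand): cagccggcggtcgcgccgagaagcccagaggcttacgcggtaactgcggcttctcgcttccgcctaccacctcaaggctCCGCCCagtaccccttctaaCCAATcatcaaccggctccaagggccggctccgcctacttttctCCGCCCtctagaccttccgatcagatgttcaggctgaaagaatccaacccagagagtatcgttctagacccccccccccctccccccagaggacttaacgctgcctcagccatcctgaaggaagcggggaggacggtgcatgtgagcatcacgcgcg
Idh1 promoter, downstream start (chr1:65179093-65179392, minus strand): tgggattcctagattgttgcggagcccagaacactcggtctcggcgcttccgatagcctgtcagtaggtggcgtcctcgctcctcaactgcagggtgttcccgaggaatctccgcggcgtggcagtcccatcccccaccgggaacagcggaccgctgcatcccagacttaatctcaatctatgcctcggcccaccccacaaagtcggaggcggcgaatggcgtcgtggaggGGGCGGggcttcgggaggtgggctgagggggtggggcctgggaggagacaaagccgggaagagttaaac
Cpt1a promoter (chr19:3323051-3323350, plus strand): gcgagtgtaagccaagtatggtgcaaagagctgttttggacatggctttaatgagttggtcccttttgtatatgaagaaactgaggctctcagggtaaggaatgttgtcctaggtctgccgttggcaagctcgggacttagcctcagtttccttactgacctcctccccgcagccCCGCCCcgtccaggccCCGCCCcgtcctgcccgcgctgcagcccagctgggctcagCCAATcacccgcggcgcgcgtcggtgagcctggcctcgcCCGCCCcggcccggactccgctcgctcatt
Acadm promoter (chr3:153944594-153944893, minus strand): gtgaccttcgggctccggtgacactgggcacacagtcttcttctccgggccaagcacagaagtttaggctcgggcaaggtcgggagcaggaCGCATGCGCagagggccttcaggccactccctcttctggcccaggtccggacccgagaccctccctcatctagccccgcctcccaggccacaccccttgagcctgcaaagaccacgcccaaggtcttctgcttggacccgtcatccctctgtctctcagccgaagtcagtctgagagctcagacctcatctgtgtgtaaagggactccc

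The windows of Cpt1a and of both Idh1 starts hold GC boxes, that of Acadm holds the NRF1 core, and that of Pdha1 holds none of the letters searched. A GC box lay in a window of 23 of the 32 genes and in 35.7% of all 32851 promoters of the table. A CCAAT box lay in 16 of the 32 genes and in 37.4% of all promoters. The NRF1 core lay in 3 genes, Acadm, Etfdh and Ogdh, and in 1.75% of all promoters. The extended half-site of nuclear receptors (TNAAGGTCA) lay in 0 genes and 1.28% of promoters. The direct repeat AGGTCANAGGTCA, bound by PPAR receptors, lay in 0 genes and 0.0396% of promoters. The gamma-activated site of STAT factors (TTCNNNGAA) lay in 3 genes, Cpt2, Hadhb and Ivd, and in 8.3% of promoters. The core of the interferon-stimulated response element (GAAANNGAAA) lay in Suclg2 alone and in 3.44% of promoters. Motifs were searched on both strands, some genes have several windows, a gene counted if any of its windows held the motif, and these matches describe letters only.

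Of the 3 pyruvate dehydrogenase genes among the 32, 2 fell with poly IC, against 20.1% of all genes called lower. Pdha1, the alpha subunit of the E1 enzyme that decarboxylates pyruvate, had a signal of 12803 in naive, 5395 and 4739 in poly IC, and 8658 and 7586 with ethanol. The naive array was highest, both poly IC arrays were lowest and the ethanol arrays lay between without overlap. Pdha1 was lower in poly IC by a difference of -1.30 (SE 0.186, limma adjusted p = 0.000613). Pdhb, the beta subunit of the same E1 enzyme, had a signal of 7963 in naive, 4539 and 5603 in poly IC, and 6522 and 6127 with ethanol. Its arrays fell in the same order, and the drop with poly IC was -0.63 (SE 0.197, adjusted p = 0.0341). Dld, the E3 subunit that pyruvate dehydrogenase shares with 2-oxoglutarate dehydrogenase, was not called in any comparison. Its signal was 5343 in naive, 6635 and 6585 in poly IC, and 6415 and 5861 with ethanol, with naive the lowest. Dlat, another subunit of the complex, is not among the 32 and was not called in any comparison. It had 969 in naive, 604 and 949 in poly IC, and 1316 and 1027 with ethanol. The call on Pdhb was lost without poly IC pool 1 (-0.49, adjusted p = 0.198), without pool 2 (-0.78, adjusted p = 0.0553), with quantile normalization (adjusted p = 0.0697), with centred arrays (-0.44, adjusted p = 0.153) and without the intensity trend (adjusted p = 0.0828).

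In the mitochondrial TCA cycle 2 of 12 tested genes fell with poly IC, a share near the 20.1% of all genes called lower. Succinate dehydrogenase is not among these 12, and its subunits are described with the other pathway genes. Both genes of the 12 that fell encode subunits of larger enzymes. Idh3g, a regulatory subunit of the NAD-dependent isocitrate dehydrogenase, had a signal of 12448 in naive, 6011 and 6072 in poly IC, and 10673 and 6509 with ethanol. Both poly IC arrays were lowest, and the ethanol pools lay far apart, one near naive and one near poly IC. The drop with poly IC was -1.01 (SE 0.257, limma adjusted p = 0.0138), lost with centred arrays (-0.82, adjusted p = 0.0627) and without the intensity trend (adjusted p = 0.0627). Idh3a, the catalytic subunit of the same enzyme, was not called and had a signal of 1511 in naive, 1204 and 1405 in poly IC, and 1237 and 1378 with ethanol. Idh3b, another subunit, stayed below the filter, with 56.6 in naive, 78.4 and 95.4 in poly IC, and 274 and 613 with ethanol. On 4 of the 5 arrays its signal lay below the brightest unspiked control, so it was not tested. Suclg1, the alpha subunit shared by both succinyl-CoA ligases, had a signal of 4145 in naive, 2413 and 2378 in poly IC, and 3324 and 2452 with ethanol. All treated arrays lay below naive, and the drop with poly IC was -0.73 (SE 0.231, adjusted p = 0.0362). That call was lost without poly IC pool 1 (-0.74, adjusted p = 0.115), without pool 2 (-0.72, adjusted p = 0.13), without the filter (adjusted p = 0.0726), without the intensity trend (adjusted p = 0.0717), with quantile normalization (-0.55, adjusted p = 0.11) and with centred arrays (-0.535, adjusted p = 0.133). The beta subunits that pair with Suclg1 were not called. Suclg2, the GTP-forming one, had 4785 in naive, 3658 and 6240 in poly IC, and 3724 and 5263 with ethanol, so that every group overlapped. Sucla2, the ATP-forming one, whose probe set has the suffix for families of similar sequences, had 3324 in naive, 2227 and 2611 in poly IC, and 2929 and 2212 with ethanol.

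The TCA cycle genes among the 32 that are not yet described were not called in any comparison. Cs, citrate synthase, which starts the cycle, had a signal of 10375 in naive, 7913 and 6451 in poly IC, and 10373 and 8633 with ethanol. Both poly IC arrays lay below the other arrays, by a difference from naive of -0.52 (SE 0.198, limma adjusted p = 0.0715). Leaving out ethanol pool 1 or ethanol pool 2, which changes the estimated spread, brought that adjusted p to 0.0137 in either case. Idh2, the NADP-dependent isocitrate dehydrogenase of the matrix, had 3516 in naive, 1790 and 1905 in poly IC, and 2821 and 1524 with ethanol (difference -0.845, SE 0.308, adjusted p = 0.0621 for poly IC against naive). The naive array was highest and the ethanol pools lay on both sides of the poly IC pools. Fh1, fumarase, differed between poly IC and naive by -0.54 (SE 0.188, adjusted p = 0.054). For Idh2 and Fh1 the adjusted p for this comparison was 0.00163 and 0.0205 without ethanol pool 1 and 0.00112 and 0.0211 without ethanol pool 2. Mdh2, the malate dehydrogenase of the matrix, had 18782 in naive, 17900 and 18150 in poly IC, and 15989 and 17442 with ethanol. Its poly IC mean was 96.0% of naive, and its difference of -0.06 had an SE of 0.148. Ogdh and Dlst, the E1 and E2 subunits of 2-oxoglutarate dehydrogenase, differed from naive by -0.23 (SE 0.185) and 0.04 (SE 0.196) in poly IC.

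Of the cytosolic counterparts, Idh1 changed. Idh1 encodes the NADP-dependent isocitrate dehydrogenase of cytosol and peroxisomes and had a signal of 11965 in naive, 2845 and 1713 in poly IC, and 5938 and 4132 with ethanol. The poly IC mean was 19.0% of naive and the ethanol mean 42.1% of naive, and no groups overlapped. The drop with poly IC was -2.31 (SE 0.298, limma adjusted p = 0.000315), the most negative difference of the 32 genes. Mdh1, the cytosolic malate dehydrogenase, was not called, with 1435 in naive, 1849 and 1674 in poly IC, and 1446 and 2645 with ethanol. Aco1, the cytosolic aconitase that also acts as an iron sensor, stayed below the filter at 134 to 851.

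The 4 tested genes of the carnitine entry group, Crat among them, fell with poly IC, though the call on Cpt2 was lost under some alternatives. Cpt1a, carnitine palmitoyltransferase of the outer membrane and the rate-limiting step of entry, had a signal of 18224 in naive, 3859 and 3573 in poly IC, and 6361 and 6690 with ethanol. The pools of each treated group were close together, and the 3 groups did not overlap. Cpt1a was lower in poly IC by -2.22 (SE 0.18, limma adjusted p = 1.27e-05), at 20.4% of the naive signal. Crat, carnitine acetyltransferase, which moves acetyl groups between CoA and carnitine, had a signal of 3774 in naive, 535 and 638 in poly IC, and 1973 and 1671 with ethanol. Both poly IC arrays were far below the others and the ethanol arrays lay near the middle. The drop with poly IC was -2.27 (SE 0.26, adjusted p = 0.000144), at 15.5% of the naive signal. A second Crat probe set, below the filter with a mean of 357, had 1320 in naive, 123 and 76.9 in poly IC, and 98.1 and 168 with ethanol. It was high in naive too, and all its treated arrays lay below the brightest unspiked control. Slc25a20, the carnitine-acylcarnitine exchanger of the inner membrane, had a signal of 3753 in naive, 1809 and 1711 in poly IC, and 2165 and 2492 with ethanol. The groups did not overlap, and the drop with poly IC was -0.99 (SE 0.218, adjusted p = 0.00671). Cpt2, which rebuilds acyl-CoA on the matrix side, had a signal of 3520 in naive, 2098 and 1633 in poly IC, and 2335 and 1962 with ethanol. Naive was highest and the treated groups overlapped, with a drop of -0.84 (SE 0.239, adjusted p = 0.0227) from naive to poly IC. The call on Cpt2 was lost without poly IC pool 2 (-0.68, adjusted p = 0.138), without the filter (adjusted p = 0.0589), with quantile normalization (adjusted p = 0.0717) and with centred arrays (-0.65, adjusted p = 0.0752).

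Among the acyl-CoA dehydrogenases, which take the first step of each round of beta-oxidation, the medium-chain and long-chain enzymes fell. Acadm, the medium-chain enzyme, had a signal of 9218 in naive, 1972 and 1736 in poly IC, and 3488 and 5116 with ethanol. The 3 groups did not overlap, and the poly IC mean was 20.1% of naive. The drop was -2.17 (SE 0.247, limma adjusted p = 0.000138). Acadl, the long-chain enzyme, had a signal of 2341 in naive, 815 and 754 in poly IC, and 1412 and 817 with ethanol. One ethanol pool lay at the poly IC level and the other between it and naive, and the drop with poly IC was -1.325 (SE 0.328, adjusted p = 0.0123). Acads, the short-chain enzyme, and Ivd, which oxidises isovaleryl-CoA from leucine, were not called, with differences of -0.44 (SE 0.288) and -0.75 (SE 0.365) in poly IC. Acadvl, the very-long-chain enzyme, stayed below the filter at 138 to 350, under the brightest unspiked control on all 5 arrays.

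Of the enzymes that complete a round of beta-oxidation, Acaa2 and Echs1 fell among 5 tested. Acaa2, the matrix thiolase that releases acetyl-CoA, had a signal of 19700 in naive, 9317 and 7365 in poly IC, and 10928 and 10393 with ethanol. The groups did not overlap, and the drop with poly IC was -1.225 (SE 0.185, limma adjusted p = 0.000837). Echs1, the short-chain enoyl-CoA hydratase, had a signal of 2902 in naive, 228 and 927 in poly IC, and 1660 and 287 with ethanol. The pools of each treated group were far apart and the groups overlapped, and one pool of each group lay below the brightest unspiked control of its array. Its drop with poly IC was -2.07 (SE 0.701, adjusted p = 0.0477). The call was lost without poly IC pool 1 (-1.42, adjusted p = 0.177), with an offset of 50 (adjusted p = 0.0669), with the mean of the probe sets of each gene (adjusted p = 0.0605), without the filter (adjusted p = 0.129), without the intensity trend (adjusted p = 0.122), with quantile normalization (adjusted p = 0.0981) and with centred arrays (adjusted p = 0.0964). Hadhb, the beta subunit of the trifunctional protein, was not called, with 8259 in naive, 7988 and 9026 in poly IC, and 9911 and 8838 with ethanol. Its treated arrays lay on both sides of naive, with a difference of 0.04 (SE 0.179) in poly IC. Hadh, the short-chain hydroxyacyl-CoA dehydrogenase, and Eci1, the isomerase needed for unsaturated chains, were not called either, at -0.26 (SE 0.276) and -0.505 (SE 0.213). Decr1, the reductase for unsaturated chains, stayed below the filter, with 1029 in naive, 205 and 64.4 in poly IC, and 444 and 371 with ethanol.

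Of the electron transfer flavoprotein genes, Etfdh fell and the subunits Etfa and Etfb were not called. Etfdh encodes the oxidoreductase that hands the electrons to ubiquinone and had a signal of 2128 in naive, 1039 and 723 in poly IC, and 1066 and 1301 with ethanol. Naive was highest and both ethanol arrays lay above both poly IC arrays. The drop with poly IC was -1.09 (SE 0.298, limma adjusted p = 0.0197), lost without poly IC pool 2 (-0.88, adjusted p = 0.105), without the filter (adjusted p = 0.0661) and with quantile normalization (adjusted p = 0.0506). Etfa and Etfb differed from naive by -0.11 (SE 0.207) and -0.44 (SE 0.213) in poly IC.

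**Figure D2:**
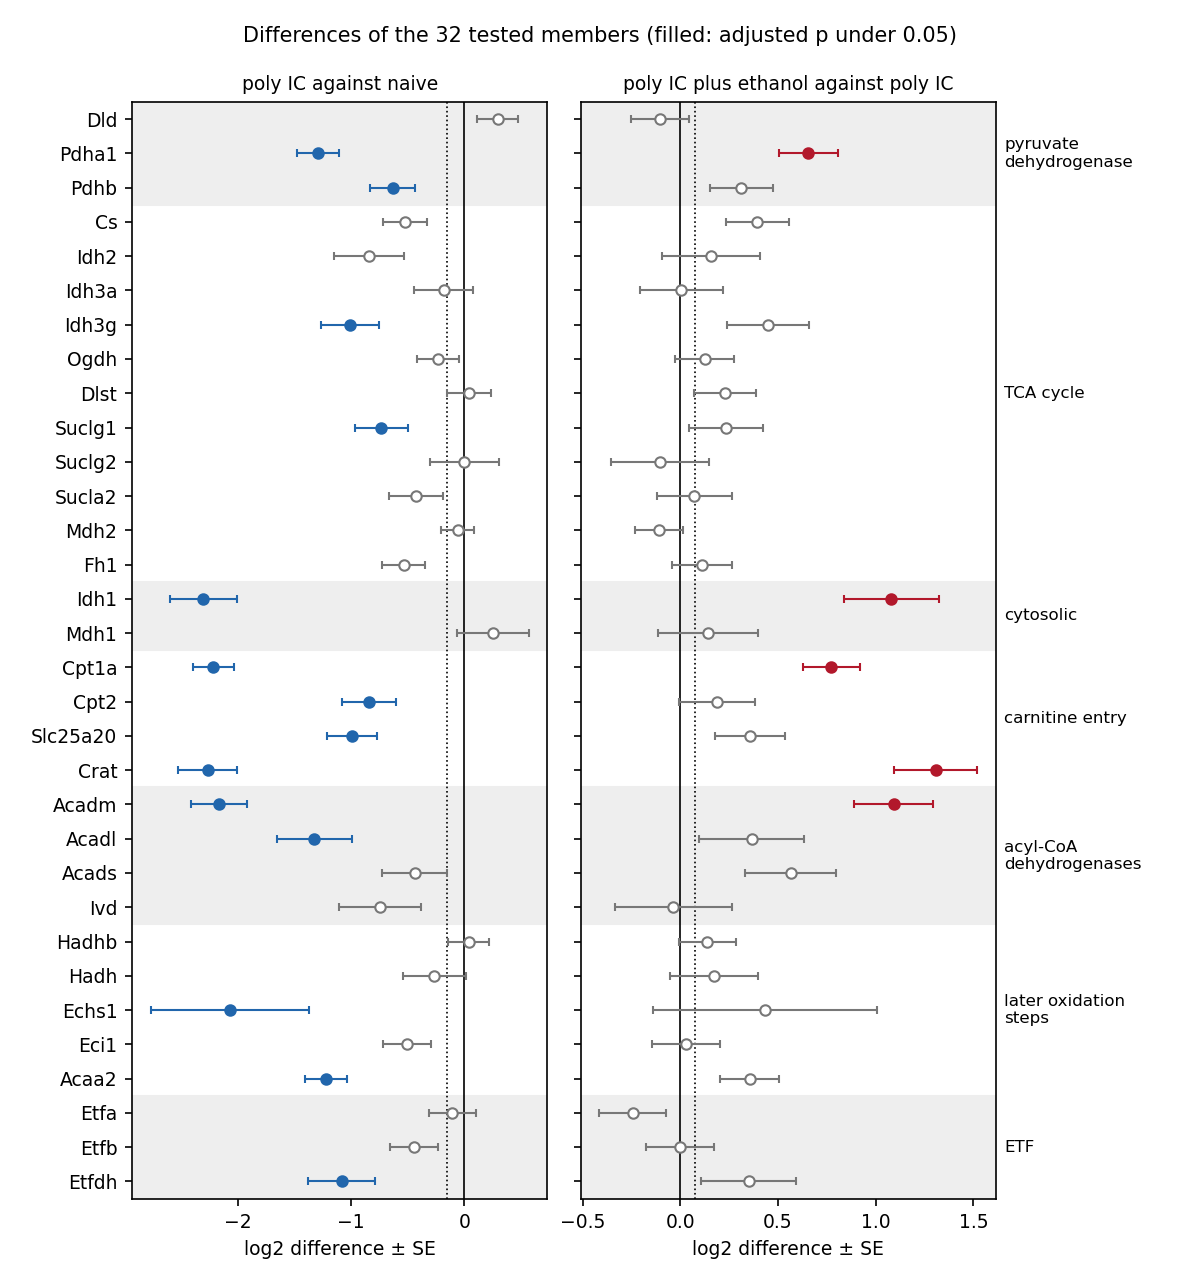
Difference of log2(signal + 250) with its standard error for the 32 tested genes, from naive to poly IC on the left and from poly IC to poly IC plus ethanol on the right; filled points passed an adjusted p of 0.05, and the dotted line is the median of all genes. On the left 14 points are filled, all below 0, and on the right 5 are filled, all above 0.

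Ethanol with poly IC was compared with poly IC alone, the comparison the study was made for. The 5 genes higher with ethanol were Crat, Acadm, Idh1, Cpt1a and Pdha1. Their arrays did not overlap between these groups, which was also so for genes not called, among them Etfa, Dld and Mdh2. At an unadjusted p under 0.05, limma counted 8 of the 32 higher and 0 lower, against 15.0% and 10.8% of all genes. The median difference was 0.207, against 0.075 for all genes. Over all genes 322 were higher and 268 lower, which became 194 and 286 with centred arrays, where the centring shift was 0.0876.

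The sizes ranged from 1.6-fold to 3.11-fold in the ratio of mean signals. Crat had the largest difference, 1.31 (SE 0.212, limma adjusted p = 0.006), a 3.11-fold ratio. Acadm differed by 1.09 (SE 0.202, adjusted p = 0.00994), a 2.32-fold ratio. Idh1 differed by 1.08 (SE 0.243, adjusted p = 0.0223), a 2.21-fold ratio. These 3 genes cover acetyl-carnitine exchange, medium-chain oxidation and cytosolic NADPH supply. Cpt1a differed by 0.77 (SE 0.147, adjusted p = 0.0111), a 1.76-fold ratio. Pdha1 differed by 0.655 (SE 0.152, adjusted p = 0.0254), a 1.6-fold ratio. The call on Crat held under every alternative run, with adjusted p up to 0.043. Its second probe set lay below the brightest unspiked control on all treated arrays and allows no statement on ethanol. Without poly IC pool 1, where 2.08% of all genes were called higher, 3 genes were called, with Cpt1a (0.825, adjusted p = 0.0653) and Pdha1 (0.74, adjusted p = 0.0921) lost. Without poly IC pool 2, where 1.34% of all genes were called higher, Crat alone was called, while Acadm (1.01, adjusted p = 0.0967), Idh1 (0.75, adjusted p = 0.194), Cpt1a (0.72, adjusted p = 0.124) and Pdha1 (0.57, adjusted p = 0.221) were not. Without ethanol pool 2, where 8.51% of all genes were called higher, 8 genes were called, with Cs (0.52, adjusted p = 0.0358), Idh3g (0.80, adjusted p = 0.00084) and Echs1 (1.35, adjusted p = 0.00357) added, and without ethanol pool 1, where 10.4% were, 6 genes, with Acads (0.91, adjusted p = 0.00183) added. Without the intensity trend, where 0.788% of all genes were called higher, Crat alone was called, and the other 4 had adjusted p of 0.0717 to 0.105. Idh1 was also lost without the filter (adjusted p = 0.0697), and Pdha1 with centred arrays (0.57, adjusted p = 0.0626).

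The 27 other tested genes were not called between the ethanol and poly IC groups, at differences from -0.245 for Etfa to 0.56 for Acads. Acads, whose probe set has the suffix for relaxed probe selection, had a signal of 2407 in naive, 1666 and 1757 in poly IC, and 2032 and 3433 with ethanol. Both ethanol arrays lay above both poly IC arrays, with a difference of 0.56 (SE 0.235, limma adjusted p = 0.164). Its other probe set had 969 in naive, 449 and 608 in poly IC, and 1103 and 1056 with ethanol, a difference of 0.78 (adjusted p = 0.114). Echs1 differed by 0.43 with all arrays, by -0.22 without poly IC pool 1 and by -0.48 without ethanol pool 1. Of the 12 mitochondrial TCA cycle genes among the 32, 0 were called in this comparison, against 5.77% higher and 4.8% lower of all genes. Succinate dehydrogenase is not among these 12, and its subunits are described with the other pathway genes.

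**Figure D3:**
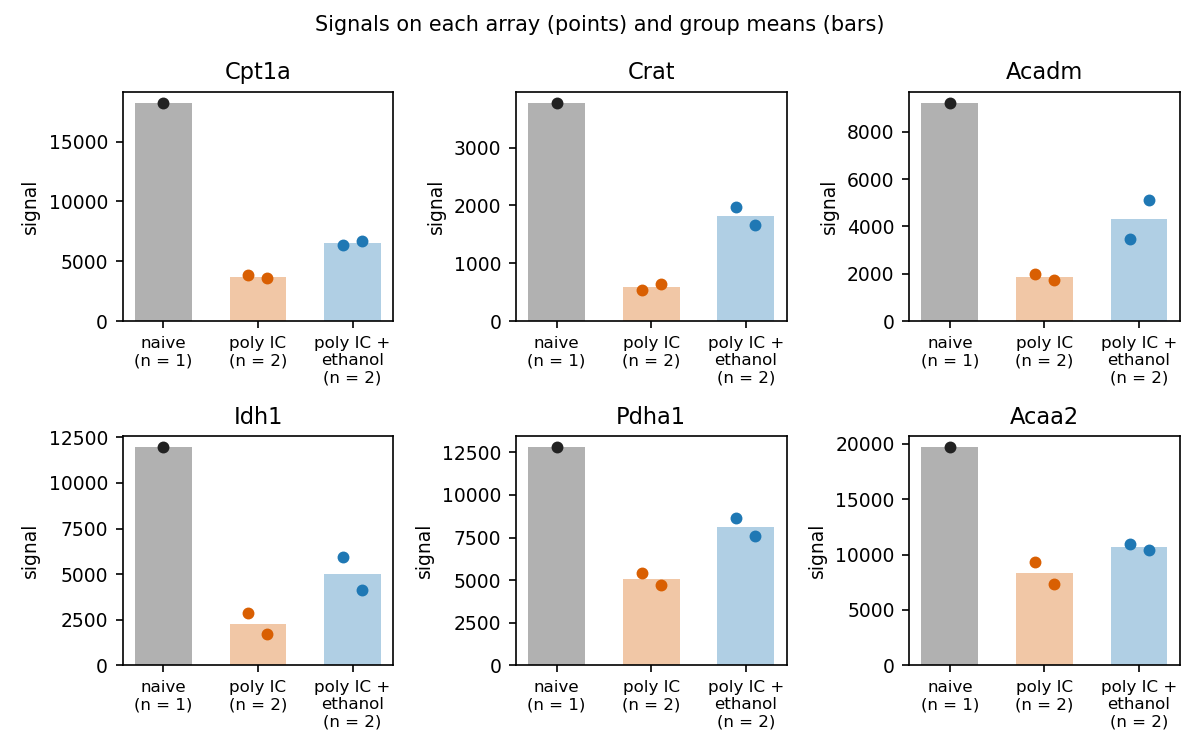
Linear signal on each array (points) with group means (bars starting at 0) for 5 genes higher with ethanol than with poly IC alone and for Acaa2. Cpt1a, for example, was at 18224 in naive, 3573 and 3859 in poly IC, and 6361 and 6690 with ethanol.

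Poly IC plus ethanol was also set against naive, to see where the genes stood with both agents. This comparison shares arrays with the other 2. Of the 32 genes, 6 were lower than naive and 0 higher (limma), against 8.26% of all genes lower and 8.39% higher. At an unadjusted p under 0.05, limma counted 13 lower and 0 higher, against 18.1% and 12.3% of all genes. The 6 were Cpt1a (-1.45, SE 0.18, adjusted p = 0.000386), Idh1 (-1.23, SE 0.298, adjusted p = 0.0201), Acadm (-1.08, SE 0.247, adjusted p = 0.0154), Crat (-0.96, SE 0.26, adjusted p = 0.0324), Acaa2 (-0.87, SE 0.185, adjusted p = 0.0104) and Pdha1 (-0.64, SE 0.186, adjusted p = 0.0426). Their ethanol means stood at 35.8% of naive for Cpt1a, 42.1% for Idh1, 46.7% for Acadm, 48.3% for Crat, 54.1% for Acaa2 and 63.4% for Pdha1. The fatty acid entry enzyme Cpt1a was thus the lowest of the 6 relative to naive, and its call held under every alternative run. The median of the 32 was -0.46, against -0.108 for all genes, whose split moved from 468 higher and 461 lower to 497 and 270 with centred arrays.

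Several of these calls depended on 1 array or setting. Without ethanol pool 1, where the lower calls over all genes also went from 461 to 825 (14.8%), 12 genes were lower, with Acadl (-1.28, adjusted p = 0.00426), Echs1 (-2.55, adjusted p = 4.3e-05), Cpt2 (-0.77, adjusted p = 0.0203), Idh2 (-1.09, adjusted p = 0.000976), Idh3g (-0.91, adjusted p = 0.000495) and Suclg1 (-0.70, adjusted p = 0.0238) added, and Mdh1 was higher (0.78, adjusted p = 0.0237). Without ethanol pool 2, Slc25a20 was added (-0.73, adjusted p = 0.03). Pdha1 was lost without poly IC pool 1 (-0.64, adjusted p = 0.0808) and without poly IC pool 2 (-0.64, adjusted p = 0.0789), which alters the estimated spread alone. Without the filter Pdha1, Idh1 and Crat were lost (adjusted p = 0.0574, 0.0603 and 0.104), with centred arrays Pdha1 and Crat (0.111 and 0.0654) and with quantile normalization Crat (0.0535). Without the intensity trend Pdha1, Idh1, Acadm and Acaa2 were lost (0.114, 0.0863, 0.0639 and 0.0659).

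**Figure D4:**
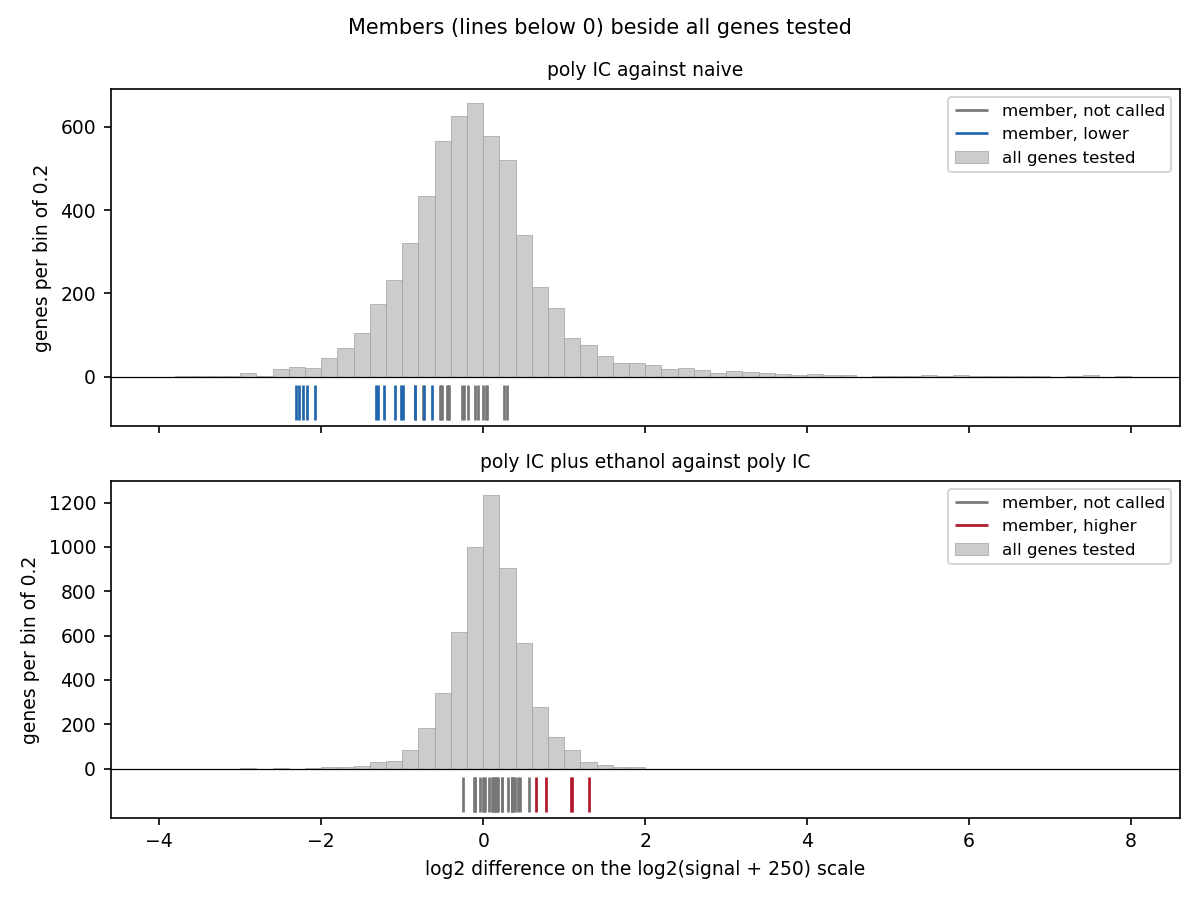
Histogram of the differences of all 5581 tested genes in bins of 0.2, with the 32 genes as lines under it, for poly IC against naive (top) and poly IC plus ethanol against poly IC (bottom). In the top panel the genes run from -2.31 to 0.295 and in the bottom panel from -0.245 to 1.31, within the range of all genes.

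Other genes around the same pathways came from a list of 85, of which 53 had a probe set of their own and 38 passed the filter. With poly IC 10 of the 38 fell and 4 rose (limma), shares near the 20.1% lower and 11.7% higher of all genes, with a median of -0.41. Hif1a, a transcription factor that turns cells towards glycolysis, rose, on a probe set with the suffix for families of similar sequences. It had a signal of 27042 in naive, 56301 and 57881 in poly IC, and 45380 and 40823 with ethanol, a rise of 1.07 (SE 0.125, adjusted p = 0.000158). Acsl4 and Acsl5, which activate long-chain fatty acids to acyl-CoA, rose by 1.16 (SE 0.239, adjusted p = 0.00486) and 0.86 (SE 0.174, adjusted p = 0.00455). The pyruvate dehydrogenase kinases, which switch that enzyme off, moved in opposite directions. Pdk1 fell, with 3170 in naive, 912 and 1193 in poly IC, and 1730 and 2045 with ethanol, by a difference of -1.40 (SE 0.254, adjusted p = 0.00242), a call kept under every alternative run. Pdk3 was called higher at 0.59 (SE 0.192, adjusted p = 0.0407). Pdk3 was lost without poly IC pool 1 (0.59, adjusted p = 0.155) and without pool 2 (0.60, adjusted p = 0.158), without the filter (adjusted p = 0.05) and without the intensity trend (adjusted p = 0.0703).

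The 5 other pathway genes with the largest test statistics in poly IC against naive were Hif1a and 4 that fell. Acly, which turns citrate into cytosolic acetyl-CoA, had a signal of 35010 in naive, 16364 and 17868 in poly IC, and 20969 and 22787 with ethanol (difference -1.02, SE 0.145, limma adjusted p = 0.000587). Abcd3, a peroxisomal fatty acyl transporter, had 3765 in naive, 943 and 1222 in poly IC, and 1836 and 1805 with ethanol (difference -1.60, SE 0.244, adjusted p = 0.000885). Nnt, which makes mitochondrial NADPH, had 5183 in naive, 2011 and 1678 in poly IC, and 3182 and 3054 with ethanol (difference -1.38, SE 0.213, adjusted p = 0.000946). In all 3 genes naive was highest and the ethanol arrays lay above the poly IC arrays. Slc25a11, the mitochondrial 2-oxoglutarate carrier, had 3670 in naive, 1350 and 1188 in poly IC, and 1841 and 1550 with ethanol (difference -1.37, SE 0.238, adjusted p = 0.00193). The others that fell were Pdk1, Glud1, Ech1, Pck2 and the succinate dehydrogenase subunits Sdha and Sdhd. Sdha (-0.85, adjusted p = 0.0292) was lost without poly IC pool 1 (-0.975, adjusted p = 0.0611) and without pool 2 (-0.73, adjusted p = 0.149), Sdhd (-0.84, adjusted p = 0.0159) without pool 1 (-0.87, adjusted p = 0.0531) and without pool 2 (-0.81, adjusted p = 0.0738), and Pck2 (-1.18, adjusted p = 0.0118) without pool 1 (-1.04, adjusted p = 0.0585). Other alternatives also ended the calls on Sdha (quantile normalization, centred arrays and no filter) and Sdhd (centred arrays and no intensity trend).

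With ethanol against poly IC, 2 of these 38 were higher and 1 lower, near the 5.77% and 4.8% of all genes, with a median of 0.239. Nnt was higher by 0.69 (SE 0.174, limma adjusted p = 0.0336). Sdhd, which anchors succinate dehydrogenase in the membrane, had a signal of 9706 in naive, 5446 and 5186 in poly IC, and 10113 and 7166 with ethanol, a rise of 0.656 (SE 0.179, adjusted p = 0.0465). Both ethanol arrays lay above both poly IC arrays. Hif1a was lower by a difference of -0.405 (SE 0.102, adjusted p = 0.0334). These 3 calls were lost without poly IC pool 1, for Nnt (0.805, adjusted p = 0.107), Sdhd (0.69, adjusted p = 0.168) and Hif1a (-0.425, adjusted p = 0.122). They were lost as well without poly IC pool 2, for Nnt (0.575, adjusted p = 0.278), Sdhd (0.62, adjusted p = 0.25) and Hif1a (-0.385, adjusted p = 0.195). Sdhd was also lost without ethanol pool 1 (0.41, adjusted p = 0.0992) and Hif1a without ethanol pool 2 (-0.33, adjusted p = 0.0527). All 3 were lost without the filter, without the intensity trend and with quantile normalization, where the difference of Hif1a was -0.13. Nnt and Sdhd were lost with centred arrays too, and Sdhd with the mean of the probe sets of each gene (adjusted p = 0.0527) and in a fit of the treated arrays alone (adjusted p = 0.0517). The other succinate dehydrogenase genes Sdha, Sdhb and Sdhc were not called in this comparison.

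In poly IC plus ethanol against naive, 6 of the 38 were lower and 2 higher, beside 8.26% and 8.39% of all genes, with a median of -0.16. Hif1a was higher by 0.67 (SE 0.125, limma adjusted p = 0.00524). Acly (-0.67, adjusted p = 0.0114), Slc25a11 (-1.01, adjusted p = 0.0174) and Abcd3 (-0.96, adjusted p = 0.0249) were lower. Glud1, glutamate dehydrogenase, had a signal of 12652 in naive, 5726 and 5312 in poly IC, and 8047 and 5480 with ethanol, and was lower by -0.90 (SE 0.23, adjusted p = 0.0248). Its ethanol pools lay apart, one of them at the poly IC level. Without the intensity trend the calls on Hif1a (adjusted p = 0.0914), Acly (adjusted p = 0.0911) and Glud1 (adjusted p = 0.0956) were lost. Without the filter those on Slc25a11 (adjusted p = 0.0604), Abcd3 (adjusted p = 0.0806) and Glud1 (adjusted p = 0.0563) were lost, and with centred arrays those on Abcd3 (adjusted p = 0.0533) and Glud1 (adjusted p = 0.073).

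**Figure D5:**
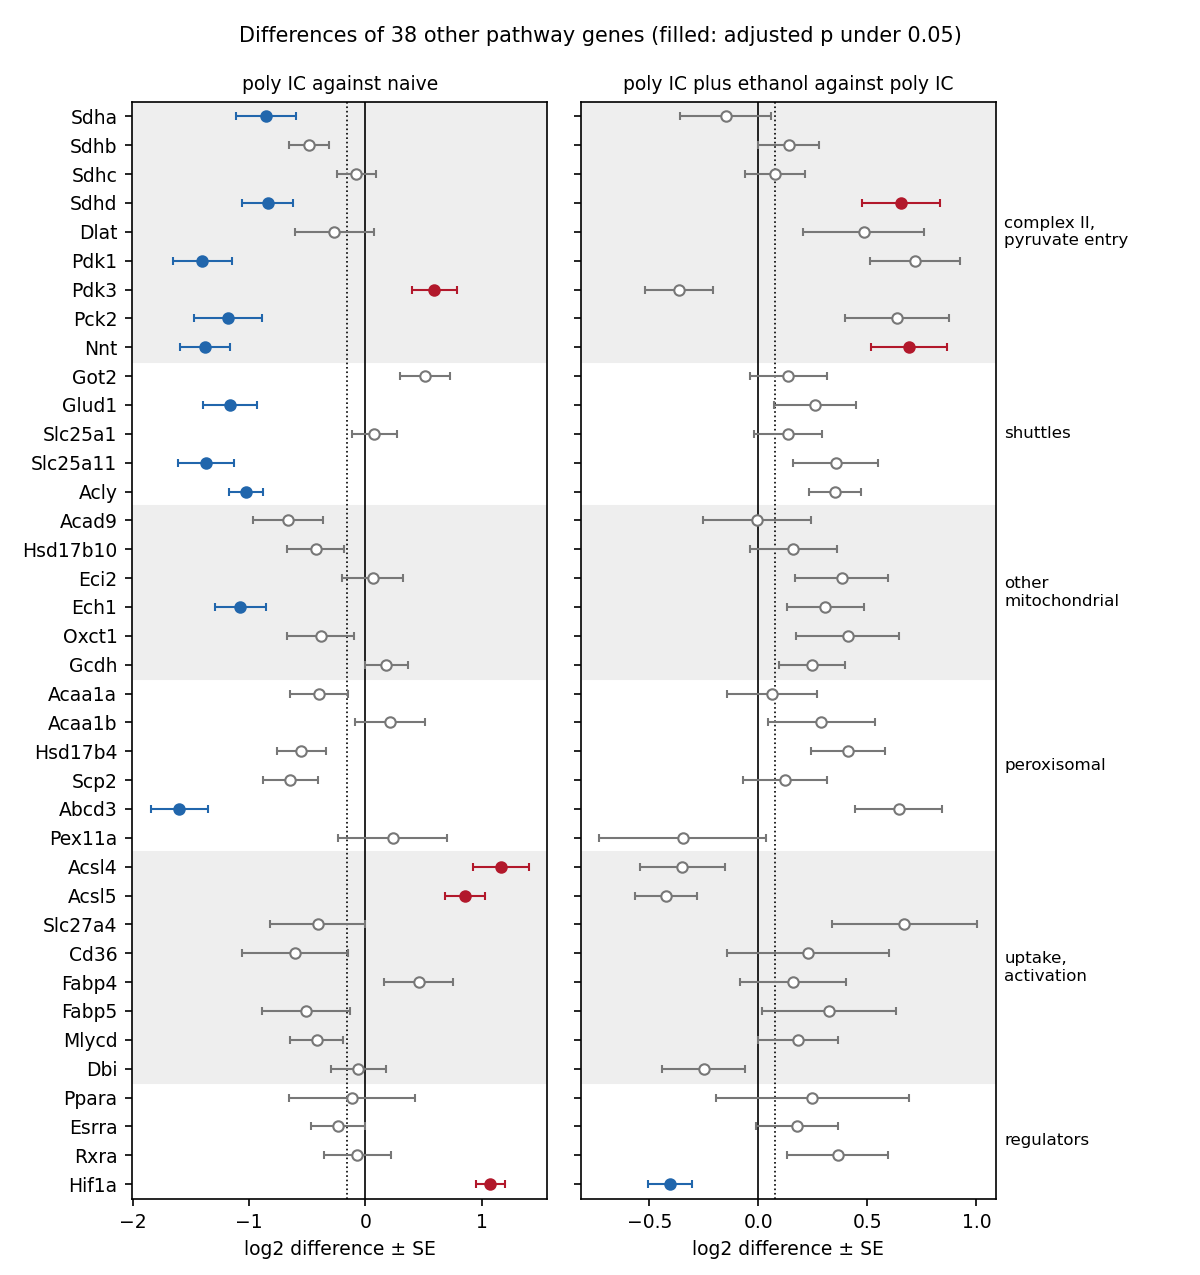
Difference of log2(signal + 250) with its standard error for the 38 other pathway genes, from naive to poly IC on the left and from poly IC to poly IC plus ethanol on the right; filled points passed an adjusted p of 0.05, and the dotted line is the median of all genes. On the left 14 points are filled, 10 of them below 0, and on the right Nnt, Sdhd and Hif1a are filled.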

How the data were processed

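Signals of 5 arrays, 1 per sample, were analysed, and samples were grouped by their titles. Per the labels, the authors summarised the scans with Microarray Suite 5.0 and scaled each array globally to a target of 2500, and used Data Mining Tool 3.0. The deposited values are linear intensities, 1 per probe set. Global scaling hides a change in total RNA. The trimmed means were 2501.5 to 2502.0 and the medians 768.6 to 902. The brightest of 19 unspiked control probe sets had 299.6 to 443.8 by array. The number of arrays limits the precision.

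Of 12422 probe sets that are no controls, 10833 had 1 symbol in the platform annotation, 396 several and 1193 none, and 10817 took their current names from a RefSeq table of GRCm38.p6. Genes whose probe set had a mean under 513, the 40th percentile, were left out. A mean for each group was fitted to log2(signal + 250) with limma 3.58.1 in R 4.3.3 (eBayes with an intensity trend, 2 residual and 7.63 prior degrees of freedom). Two-sided p-values were adjusted by Benjamini-Hochberg over all genes, and the fit was tested on simulated data. Figures used Python 3.11.15 with matplotlib 3.10.9.

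The members and lists were chosen with earlier results of these data known. Values on every array are given for members called in a comparison. For the others, values are given for Mdh2, Cs and Hadhb, which had the highest mean signals among them, for partners of called members and, chosen after their values were seen, for Acads, Mdh1, genes below the filter and second probe sets. Of the other pathway genes, those called between ethanol and poly IC and, in each comparison, the 5 with the largest statistic are named, and further ones were named after their values were seen. Alternatives were offsets of 50 and 1000, quantile normalization, median centring, no filter or the 60th percentile, no trend, the mean of the probe sets of each gene, leaving out each treated array, and a replicate block. The pools are labelled as separate samples, so the p-values refer to the spread between pools. That spread was estimated with 2 residual degrees of freedom for a gene and 7.63 prior ones drawn from all genes. The single naive array adds nothing to it.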

Additional observations from a re-analysis of the deposited data

How the results depend on the processing

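Counts of the 32 tested genes changed as follows. With 14 lower in poly IC against naive, 9 were lower with quantile normalization and 9 with centred arrays. With 5 higher in ethanol against poly IC, 1 was higher without the intensity trend, and leaving out one treated array gave 1 to 8. With 6 lower in ethanol against naive, 3 were lower without the filter and 2 without the intensity trend, and leaving out one array gave 5 to 12 lower and 0 to 1 higher. The difference of Echs1 between ethanol and poly IC ran from -0.48 to 1.35 over the fits without one array, and was -0.22 without poly IC pool 1, so its sign is not settled by these arrays. Over all genes, ethanol against poly IC had 590 calls, 86 without the trend, 324 without the filter, 203 without poly IC pool 1, 139 without poly IC pool 2 and 1076 without ethanol pool 1. Ethanol against naive had 929 calls, 579 without the trend and 1520 without ethanol pool 1, and poly IC against naive had 1775 and 1158 without poly IC pool 2. Of all genes, 8.26% were called lower in ethanol against naive, 3.25% without the filter and 4.43% without the intensity trend. The lower counts of the tested genes in these settings thus came with fewer lower calls over all genes. The share over all genes also changed when one array was left out. The causes were not tested. The differences of single genes called in at least 1 setting numbered 65, those of other pathway genes called in the main fit included. Of their 797 alternatives, 668 matched the main fit in sign and in being called or not called. In 104 the call was lost, in 23 a call was gained and in 2 the sign turned, both of Echs1. For the 56 never called, 36 of 709 alternatives turned the sign, in 19 differences of at most 0.183 in size in the main fit. The largest turned value was 0.365 in size. The pool numbers were not shown to pair the samples: over 5581 genes the deviations of same-numbered pools correlated at 0.05. With the replicate block 5 genes were higher and 0 lower, and 778 genes were called, against 552 in the same arrays with no replicate block. Probe sets under the brightest unspiked control, as for Acadvl and Idh3b, allow no statement on change.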
